A study of Mus musculus with 4 samples.

Results

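The genes of the NRF2, KEAP1 and thioredoxin pathway were followed in MC3T3-E1 cells, a line of murine calvarial pre-osteoblasts of C57BL/6 origin. The 10 genes are Nfe2l2, Keap1, Nqo1, Osgin1, Txnrd1, Txn1, Srxn1, Prdx1, Cat and Sod2, chosen by name from 19938 named genes on an Affymetrix array. Where several features carried a gene's symbol, the brightest on average stood for it, and all 10 were measured. Cells grew in proliferation medium with 100 µM citalopram, an antidepressant that blocks serotonin reuptake, for 7 days, in proliferation medium alone for 7 days, with 100 µM citalopram for 3 days, or in medium alone for 3 days. Each of these 4 groups has 1 array, so no group has a replicate and a difference at a single day carries no error or test. Whether wells were pooled is not given in the labels. The arrays read RNA from whole wells, in which fewer cells expressing a gene and less RNA per cell cannot be told apart.

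NRF2, encoded by Nfe2l2, is a transcription factor that the KEAP1 adaptor holds in the cytoplasm and passes to a CUL3 ubiquitin ligase for degradation. When oxidants or electrophiles modify cysteines of KEAP1, NRF2 escapes and enters the nucleus. There it pairs with a small MAF protein and binds antioxidant response elements in the promoters of detoxifying and thiol-reducing enzymes. The thioredoxin system then carries electrons from NADPH through thioredoxin reductase and thioredoxin to peroxiredoxins, which reduce peroxides. In osteoblasts this network is known for its part in tolerance of oxidative stress and in the balance of bone formation.

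The values are the authors' deposited expression values on a log2 scale, and a difference of 0.58 corresponds to 1.5-fold. A gene entered a comparison if the array with its higher value put it at or above the 40th percentile of that array's genes (5.95 to 6.01), called the floor here. All 10 members lay above the floor on all 4 arrays. The arrays were alike over 35556 features (Pearson's r between pairs, 0.986 to 0.995). Of the osteoblast lineage markers, Sp7, Col1a1, Col1a2 and Sparc were above the floor on every array, Alpl lay at the floor (5.93 to 6.09) and Runx2 was not analysed here. The 5 endothelial and 5 adipocyte markers were below the floor on every array. Of 6 macrophage markers, Adgre1, Csf1r and Ptprc were below it and Cd68, Cd14 and Lyz2 above. Of 5 chondrocyte markers, Acan, Comp and Matn1 were below it and Sox9 and Col2a1 above, and 3 of 5 myogenic markers were above it on at least 1 array.

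Relative to control, 8 of the 10 members were higher with citalopram at day 7, where 51.3% of genes were, and 9 at day 3, where 57.7% were. Most of these differences were small. The median log2 difference was 0.08 at day 7 and 0.14 at day 3, beside 0.01 and 0.03 over all genes counted. In all, 7 members were higher at both days (Nfe2l2, Nqo1, Osgin1, Txnrd1, Txn1, Srxn1 and Cat) and 0 were lower at both. Of 11952 genes, 31.2% were higher at both days and 22.0% lower. After median centring of the arrays, 7 members were higher at day 7 and 6 at both days. Prdx1 is counted by its brighter feature, and the mean of its features was at 0.05 at day 7 and -0.07 at day 3. Osgin1 at day 7 was the only member past 1.5-fold, in a comparison where 0.559% of genes were higher and 0.945% lower by that much. At day 3, 0 members passed 1.5-fold, and 0.804% of genes did. At a lower threshold of 0.32 on the log2 scale, 2 members passed at day 7 (Osgin1 and Nqo1), where 12.0% of genes did, and 2 at day 3 (Nqo1 and Cat), where 7.71% did. The NADPH quinone reductase gene Nqo1 was higher in both pairs and also rose with culture time, the single call that a test across genes gave for a member.

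**Figure D1:**
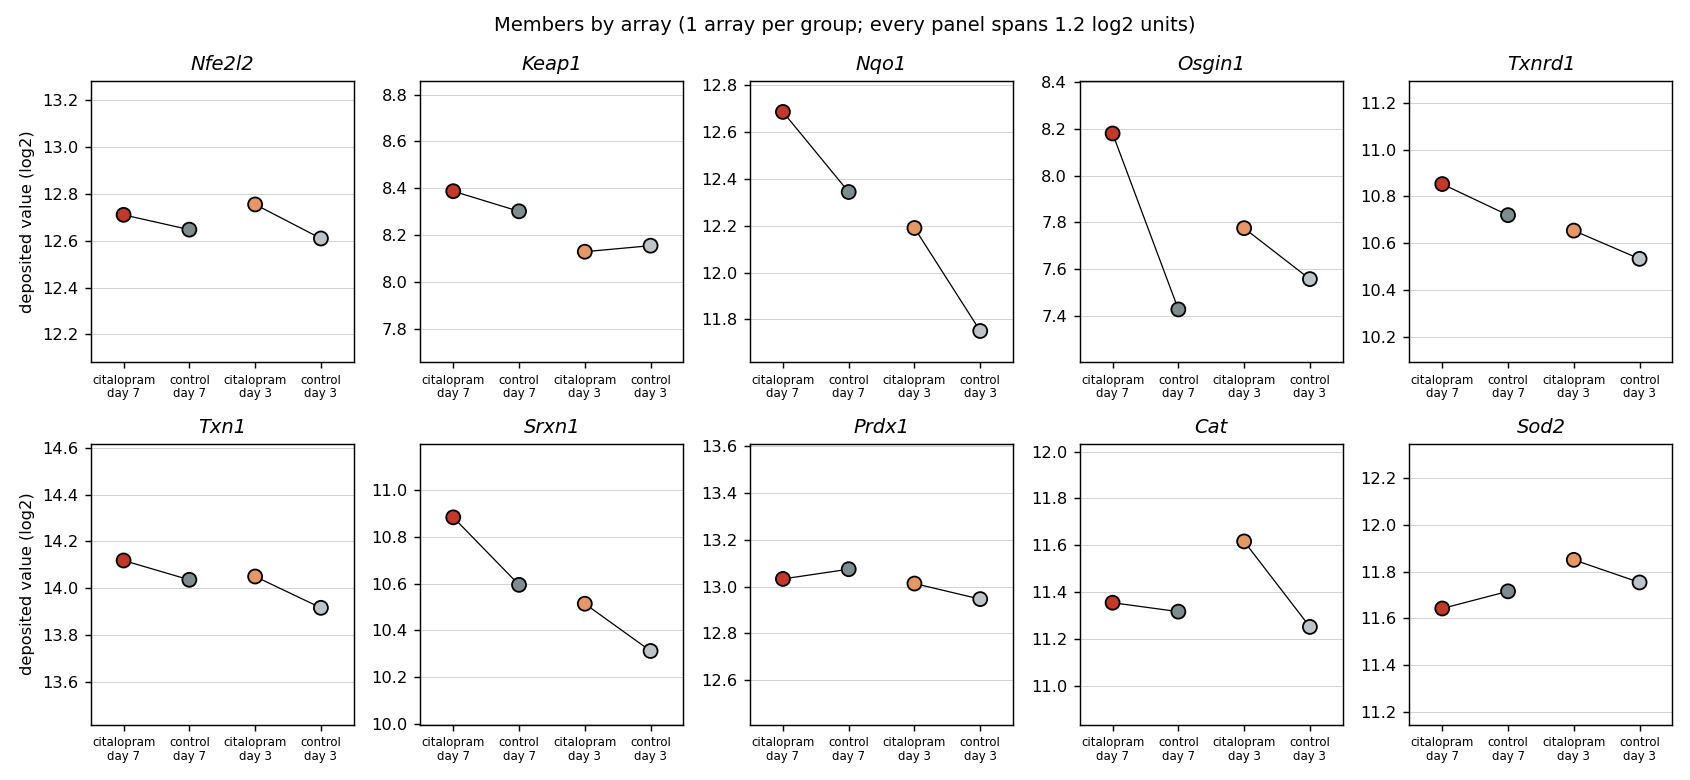
Deposited log2 values of the 10 members on each array, with 1 point per array, lines joining citalopram and control of the same day, and every panel spanning 1.2 log2 units. Nqo1, Txnrd1 and Srxn1 have the same order over the 4 arrays, citalopram at day 7 being highest and control at day 3 lowest, whereas Osgin1 is set apart by 1 array, citalopram at day 7 (8.18).

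Because NRF2 acts through promoter elements, the 250 bases before the annotated start were searched in each member for TGACNNNGC and TGAGNNNGC, core letters of the antioxidant response element, on both strands. The sequences are from RefSeq on build GRCm38.p6, and all 10 members had a window (Txnrd1 had 3). The windows shown are those of the called gene Nqo1, of Osgin1 and Srxn1, and, for contrast, of Nfe2l2 and Prdx1. Each is written 5′ to 3′ along the gene, with matches in capitals, and a match on the opposite strand reads as GCNNNGTCA or GCNNNCTCA here.
Nqo1, reverse strand, chr8:107403206-107403455: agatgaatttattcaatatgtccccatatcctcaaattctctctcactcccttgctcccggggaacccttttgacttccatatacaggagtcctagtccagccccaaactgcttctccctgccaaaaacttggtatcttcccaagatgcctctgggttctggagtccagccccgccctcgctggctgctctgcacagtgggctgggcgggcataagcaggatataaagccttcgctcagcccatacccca
Osgin1, forward strand, chr8:119436897-119437146: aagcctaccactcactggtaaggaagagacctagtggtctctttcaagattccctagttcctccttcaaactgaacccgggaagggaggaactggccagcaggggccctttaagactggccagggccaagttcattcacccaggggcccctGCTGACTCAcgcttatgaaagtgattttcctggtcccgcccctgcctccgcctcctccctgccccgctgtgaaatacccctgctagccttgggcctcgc
Srxn1, forward strand, chr2:152105274-152105523: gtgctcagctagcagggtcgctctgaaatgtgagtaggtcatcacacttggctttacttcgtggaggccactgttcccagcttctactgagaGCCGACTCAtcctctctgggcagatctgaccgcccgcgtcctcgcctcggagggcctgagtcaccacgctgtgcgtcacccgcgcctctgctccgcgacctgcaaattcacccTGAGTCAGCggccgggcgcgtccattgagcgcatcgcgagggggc
Nfe2l2, reverse strand, chr2:75704664-75704913: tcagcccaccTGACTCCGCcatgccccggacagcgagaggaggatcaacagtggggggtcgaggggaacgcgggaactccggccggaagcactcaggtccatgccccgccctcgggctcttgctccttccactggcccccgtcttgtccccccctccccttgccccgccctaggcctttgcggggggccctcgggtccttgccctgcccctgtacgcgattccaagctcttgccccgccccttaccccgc
Prdx1, forward strand, chr4:116685349-116685598: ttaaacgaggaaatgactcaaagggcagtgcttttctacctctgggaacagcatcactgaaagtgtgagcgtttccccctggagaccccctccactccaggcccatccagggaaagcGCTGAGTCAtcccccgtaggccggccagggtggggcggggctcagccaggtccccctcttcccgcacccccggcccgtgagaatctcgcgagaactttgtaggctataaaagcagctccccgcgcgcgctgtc

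Of the 10 members, 5 held at least 1 match, beside 25.7% of all 27025 genes with a window and 23.0% of all 32851 windows. Osgin1 held TGAGTCAGC on the opposite strand, 91 to 99 bases before its start. That start is one of a transcript that begins inside the annotated gene (chr8:119425882-119446257). Srxn1 held a pair of matches, TGAGTCAGC at 37 to 45 bases and TGAGTCGGC, on the opposite strand, at 150 to 158 bases before its start. Prdx1 held TGACTCAGC on the opposite strand at 125 to 133 bases, Nfe2l2 TGACTCCGC at 232 to 240 bases, and 1 of the Txnrd1 windows TGACAAAGC on the opposite strand at 84 to 92 bases. The matches in Osgin1 and Prdx1 and the nearer one in Srxn1 also contain the letters of the AP-1 site, TGAGTCA or its complement TGACTCA. Of the genes with no window printed, RefSeq places Keap1 at chr9:21229730-21239332, Txnrd1 at chr10:82833951-82897724, Txn1 at chr4:57943373-57956411, Cat at chr2:103453904-103485153 and Sod2 at chr17:13007839-13018119. The letters of neither motif were in the windows of Keap1, Nqo1, Txn1, Cat or Sod2. Sequence outside the windows was not searched, so whether these genes, Nqo1 among them, hold a match further upstream was not tested. Members with a match included both Osgin1, which differed most with citalopram at day 7, and Prdx1, whose brighter feature differed by less than 0.1 at either day.

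The regulators of the pathway differed little. Nfe2l2 had 12.71 with citalopram and 12.65 in control at day 7, and 12.76 with citalopram and 12.61 in control at day 3. On the deposited values both citalopram arrays lay above both control arrays, with differences of 0.06 at day 7 and 0.15 at day 3. Under median centring the day 7 difference was 0.01 and control was lower at day 7 than at day 3 (-0.07). Citalopram at day 7 then lay below control at day 3. Fitted over both days, the change of Nfe2l2 was 0.10 ± 0.10 (SE) with an adjusted p of 0.876 in limma. Keap1, the inhibitor, had 8.39 with citalopram and 8.30 in control at day 7, and 8.13 with citalopram and 8.15 in control at day 3. Its arrays separated by day rather than by treatment, with both day 7 values above both day 3 values, and the fitted day change of 0.20 ± 0.10 did not pass (limma adjusted p 0.327).

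Nqo1 encodes a cytosolic flavoenzyme that reduces quinones without releasing semiquinone radicals and is a widely used readout of NRF2 activity. Its values were 12.69 with citalopram and 12.34 in control at day 7, against 12.19 with citalopram and 11.75 in control at day 3. At each day citalopram was higher, by 0.34 at day 7 (1.27-fold) and by 0.44 at day 3 (1.36-fold). These differences stood at the 95.1 and 98.2 percentiles of the genes counted. Over both days the citalopram change was 0.39 ± 0.10 (SE; unadjusted p 0.00542) and did not pass Benjamini-Hochberg adjustment in limma (adjusted p 0.366, and 0.103 to 1.00 under 8 alternatives).

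Nqo1 also rose with culture time. Day 7 exceeded day 3 by 0.50 with citalopram (1.41-fold) and by 0.59 in control (1.51-fold). The fitted day change was 0.54 ± 0.10 with a limma adjusted p of 0.0390, in a fit where 1.31% of 12415 genes were called higher and 1.49% lower at day 7. Nqo1 was the only member of the 10 called for day. The adjusted p was 0.0607 without a floor, 0.0584 with the floor at the 20th percentile and 0.206 with day as the only term, and the call did not hold under these 3 alternatives. The difference in control passed 1.5-fold, where 2.29% of genes passed in either direction. It lay just under 1.5-fold after quantile normalization (0.56) and cyclic loess (0.575), and further under it after median centring (0.49).

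Osgin1, an oxidative stress-induced gene whose product is linked to growth inhibition and cell death, had a different course. It had 8.18 with citalopram and 7.43 in control at day 7, and 7.78 with citalopram and 7.56 in control at day 3. The array of citalopram at day 7 was the highest of the 4 and that of control at day 7 the lowest. The citalopram difference was 0.75 at day 7 (1.68-fold), at the 99.8 percentile of genes, and 0.22 at day 3. Its change over culture time was 0.40 with citalopram and -0.13 in control, opposite in sign. The difference between those changes (0.53) was not tested. The additive fit counts it as residual, and a term for it would leave no residual. Over both days the fitted citalopram change was 0.48 ± 0.14 (SE; unadjusted p 0.00800), which did not pass in limma (adjusted p 0.391, and 0.0636 to 1.00 under 8 alternatives). The 1.5-fold difference at day 7 held under quantile normalization (0.69), cyclic loess (0.72) and median centring (0.70).

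**Figure D2:**
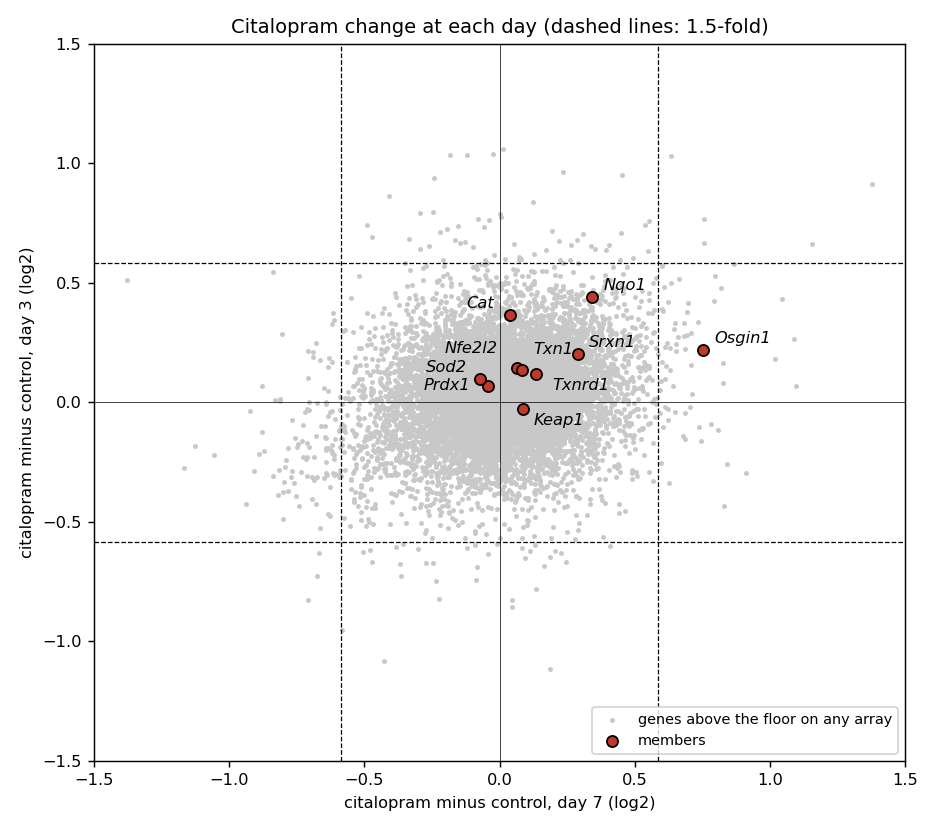
Log2 difference between citalopram and control at day 7 (horizontal) and at day 3 (vertical) for the 12415 genes above the floor on any array (grey) and the 10 members (red), with dashed lines at 1.5-fold. Osgin1 is the only member past 1.5-fold at day 7, at 0.75, and Nqo1 (0.34 and 0.44) and Srxn1 (0.29 and 0.20) lie toward the upper right.

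Srxn1 encodes sulfiredoxin, which restores peroxiredoxins whose active-site cysteine has been overoxidised. Srxn1 had 10.88 with citalopram and 10.59 in control at day 7, and 10.51 with citalopram and 10.31 in control at day 3. The order over the deposited arrays was that of Nqo1 and Txnrd1. Differences were 0.29 and 0.20 for citalopram and 0.37 (citalopram) and 0.28 (control) for culture time. Control at day 7 exceeded citalopram at day 3 by only 0.08 for Srxn1 and 0.07 for Txnrd1. Under median centring those arrays changed places for Srxn1 and Txnrd1, and only Nqo1 kept the order. Neither fitted change passed in limma: 0.25 ± 0.10 for citalopram (adjusted p 0.540) and 0.33 ± 0.10 for day (adjusted p 0.131). After quantile normalization the day change of Srxn1 did pass (0.36; limma adjusted p 0.0371). That setting called 459 of 12415 genes higher and 1085 lower for day, beside 163 and 185 on the deposited values. Over 8 alternatives the limma adjusted p of Srxn1 for day ran from 0.0371 to 0.288.

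Txnrd1, the cytosolic selenoenzyme that reduces thioredoxin with NADPH, had 10.85 with citalopram and 10.72 in control at day 7, and 10.65 with citalopram and 10.53 in control at day 3. The citalopram differences of 0.13 and 0.12 were nearly equal. Its fitted citalopram change was 0.13 ± 0.10 (limma adjusted p 0.819). Txn1, thioredoxin itself, had 14.12 with citalopram and 14.04 in control at day 7, and 14.05 with citalopram and 13.92 in control at day 3. Both genes were slightly higher with citalopram in each pair, and Txn1 gave 0.11 ± 0.10 (limma adjusted p 0.863).

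Prdx1, a peroxiredoxin of the cytosol, was flat on its brighter feature. That feature had 13.03 with citalopram and 13.07 in control at day 7, and 13.01 with citalopram and 12.95 in control at day 3. A second feature annotated to Prdx1 had 13.05 with citalopram and 12.91 in control at day 7, and 12.90 with citalopram and 13.11 in control at day 3. The features disagreed in sign in 3 of the 4 comparisons. The citalopram difference was -0.04 on the brighter and 0.14 on the other feature at day 7, and 0.07 and -0.21 at day 3. The difference between days was 0.02 and 0.15 with citalopram and 0.13 and -0.20 in control. The direction of Prdx1 is therefore uncertain, whether either feature also reads a near-identical copy was not tested, and its fitted citalopram change was 0.01 ± 0.10 (limma adjusted p 0.995).

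Cat and Sod2 were both highest with citalopram at day 3. Cat, the peroxisomal catalase, had 11.35 with citalopram and 11.32 in control at day 7, and 11.62 with citalopram and 11.25 in control at day 3. The array of citalopram at day 3 stood 0.26 above the next highest, and the other 3 lay within about 0.10 of each other. The citalopram difference was 0.37 at day 3, the 96.6 percentile of genes, and 0.04 at day 7, a value that turned to -0.02 under median centring. Sod2, the mitochondrial manganese superoxide dismutase, had 11.64 with citalopram and 11.72 in control at day 7, and 11.85 with citalopram and 11.75 in control at day 3. Its citalopram array was thus the lower one at day 7 (-0.07) and the higher one at day 3 (0.10). Neither gene passed for citalopram in limma, with 0.20 ± 0.12 for Cat (adjusted p 0.699) and 0.01 ± 0.11 for Sod2 (adjusted p 0.995).

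Over culture time, 6 members were higher at day 7 than at day 3 in both treatments (Keap1, Nqo1, Txnrd1, Txn1, Srxn1 and Prdx1), 1 was lower in both (Sod2) and 3 differed in sign between treatments (Nfe2l2, Osgin1 and Cat). Over all genes, 28.2% of 11977 were higher in both and 36.7% lower in both. The median of the members was 0.13 with citalopram and 0.12 in control, beside -0.04 and -0.01 over all genes counted. Prdx1 is counted by its brighter feature, and with the mean of its features its difference in control was -0.035. The members' direction also depended on the scaling. As deposited, the array medians over the 19938 named genes were already close (6.89 to 6.90). Median centring lined up the medians over all features, named or not, instead. Median centring put the median of all measured genes at -0.21 with citalopram and -0.11 in control, beside -0.05 and 0.00 as deposited, and the members' medians at -0.02 and 0.02. Under it 4 members were higher and 3 lower at day 7 in both treatments, and the day difference turned sign for Nfe2l2 and Cat in control and for Txn1 and Prdx1 with citalopram. With citalopram 0 members passed 1.5-fold for day, where 4.81% of genes did, and 3 passed 0.32 on the log2 scale (Nqo1, Osgin1 and Srxn1), where 22.1% did.

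**Figure D3:**
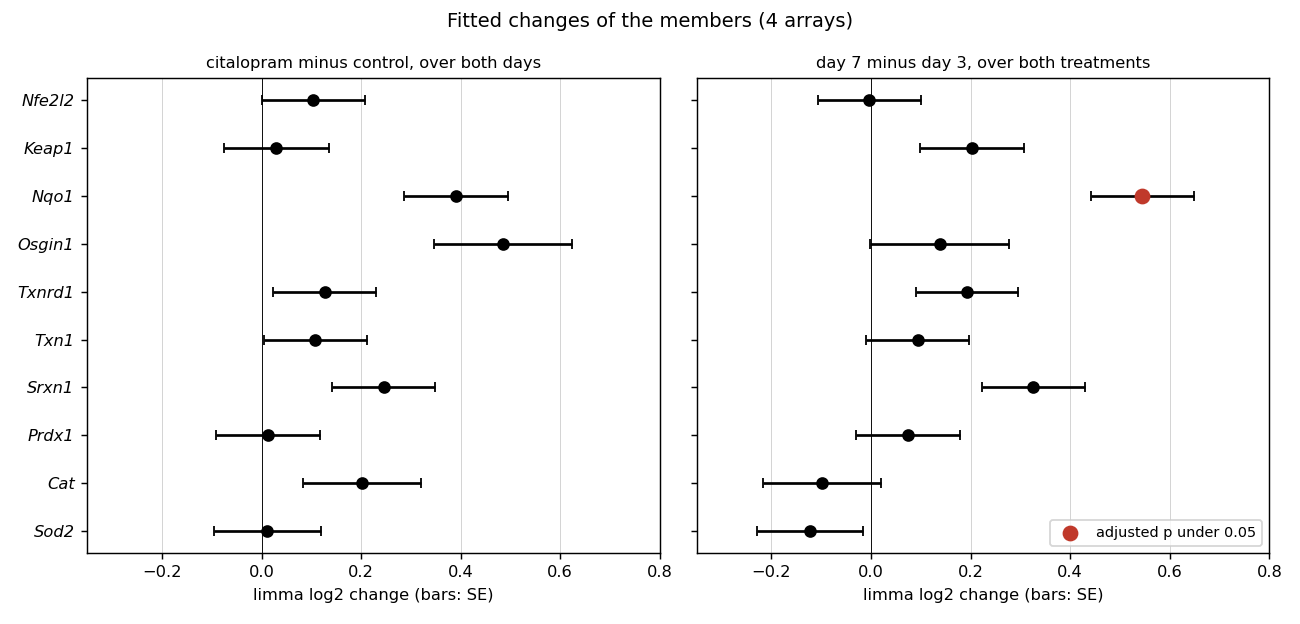
Changes of the 10 members fitted by limma on all 4 arrays, for citalopram minus control over both days (left) and day 7 minus day 3 over both treatments (right), with bars for the SE. Nqo1 for day (0.54, red) is the only change that passed adjustment over all genes.

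In limma, 0 of 12415 genes, and so 0 of the 10 members, were called for citalopram on the deposited values (0% called). Without adjustment, p was under 0.05 for 661 higher and 458 lower genes. Of the members, Nqo1, Osgin1 and Srxn1 were higher at that unadjusted level and 0 were lower. The fit has terms for treatment and day and leaves 1 residual degree of freedom per gene, so its SE, near 0.10 for most members, is drawn largely from the spread of all genes. That residual is the difference of the citalopram change between days, so a change that differs by day counts as error. The SE was 0.14 for Osgin1 and 0.12 for Cat. The days stand in for replicates, and a p-value sets the mean change of the 2 pairs of arrays against that largely shared spread. It does not measure variation between replicate cultures. The labels do not say whether the arrays came from separate cultures. After quantile normalization, cyclic loess and median centring limma called 52, 18 and 33 genes higher and 87, 22 and 70 lower for citalopram, with 0 members among them in each.

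Pathway genes outside the 10 were read from lists. Among NRF2 partners and regulators above the floor, citalopram exceeded control for 12 of 19 genes at day 7 and for 16 at day 3 (medians 0.05 and 0.06), and 0 passed 1.5-fold at either day. Under median centring the day 7 count was 8 of 19 and the median -0.01. Mafg, a small MAF partner of NRF2, was higher by 0.26 at day 7 and 0.34 at day 3, while Mafk, another, was at -0.25 and 0.04. Sqstm1, whose protein p62 draws KEAP1 into autophagy, was at 0.28 and 0.18, and Dcaf11, a ubiquitin ligase substrate receptor, at 0.03 and -0.28. In this list limma called 0 genes for citalopram and 0 for day.

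Of the other NRF2 target genes above the floor, 26 of 36 exceeded control with citalopram at day 7 and 31 of 37 at day 3. The medians were 0.12 and 0.18. Past 1.5-fold lay 3 genes at each day, all higher, and 2 at day 7 under median centring. Over all genes, 0.559% were higher by at least 1.5-fold at day 7, and 0.804% passed it in either direction at day 3. Cbr3, a carbonyl reductase gene, had 8.99 with citalopram and 8.17 in control at day 7, and 7.90 with citalopram and 7.43 in control at day 3. It was the highest of the list at day 7 (0.82), and Hmox1, haem oxygenase 1, was the highest at day 3 (0.63 at day 7 and 1.03 at day 3). Gstm1, a glutathione transferase gene, was at 0.75 and 0.67, and its probes may also read close paralogues. Idh1, a cytosolic source of NADPH, was the lowest at day 7 (-0.49) but at 0.74 at day 3. With citalopram, Idh1 was lower at day 7 than at day 3 (-1.17). Taldo1, of the pentose phosphate pathway, was the lowest at day 3 (-0.15) and at 0.13 at day 7. For citalopram limma called 0 of 37, and 7 of the 37, each higher, had an unadjusted p under 0.05, beside 5.32% of all genes higher and 3.69% lower at that level.

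Over culture time limma called 4 of these targets higher and 1 lower, of 37 tested, beside 1.31% higher and 1.49% lower over all genes. Aox1, aldehyde oxidase, rose by 0.82 ± 0.10 (SE; limma adjusted p 0.00831) and Cbr3 by 0.92 ± 0.12 (adjusted p 0.00842). Aldh3a1, an aldehyde dehydrogenase, rose by 0.62 ± 0.12 (adjusted p 0.0390), and Abcc1, an efflux pump of glutathione conjugates, by 0.52 ± 0.11 (limma adjusted p 0.0476). Nqo2, the paralogue of Nqo1 that does not use NADPH efficiently, fell (-0.69 ± 0.14; limma adjusted p 0.0478). The quinone reductase paralogues thus moved in opposite directions with time, Nqo1 by 0.54 and Nqo2 by -0.69, both past the test. Of these 5, all lost the call with day as the only term, Aldh3a1, Abcc1 and Nqo2 also without a floor or with a lower one, and Abcc1 and Nqo2 also with the mean of features.

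Of the thioredoxin, peroxiredoxin and glutaredoxin relatives, 9 of 23 were higher with citalopram at day 7 (median -0.04) and 14 of 23 at day 3 (median 0.05). None passed 1.5-fold at either day on the deposited values, although 1 gene was lower by that much at day 7 under each of quantile normalization, cyclic loess and median centring. Glrx, the cytosolic glutaredoxin, was the lowest at day 7 (-0.57) and the highest at day 3 (0.30), and was lower at day 7 than at day 3 with citalopram (-0.74). Sesn2, a sestrin linked to the regeneration of peroxiredoxins, was highest at day 7 (0.49, and -0.0022 at day 3). Prdx4, the peroxiredoxin of the endoplasmic reticulum, was lower in both pairs (-0.36 and -0.33; limma adjusted p 0.391). Txnip, which binds and inhibits thioredoxin, rose with time (0.50 ± 0.10; limma adjusted p 0.0485), the single call of the list. That call did not hold under 4 of 8 alternatives (the mean of features, no floor, the floor at the 20th percentile and day alone). Txnip was at 0.30 and 0.20 for citalopram.

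Other superoxide and peroxide enzymes were higher with citalopram in 4 of 12 above the floor at day 7 (median -0.21) and in 6 of 12 at day 3 (median 0.00). Gpx4, a glutathione peroxidase that acts on lipid peroxides, was lowest at day 7 (-0.33) and Park7 lowest at day 3 (-0.15). Xdh, the xanthine dehydrogenase gene, whose oxidase form makes superoxide, was highest at both days (0.26 and 0.60). At day 3 it was the 1 gene past 1.5-fold, and 0 were after quantile normalization or cyclic loess. It rose with time (0.63 ± 0.12; limma adjusted p 0.0388), a call that did not hold without a floor, with the floor at the 20th percentile or with day alone, and limma called 0 of the 12 for citalopram.

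**Figure D4:**
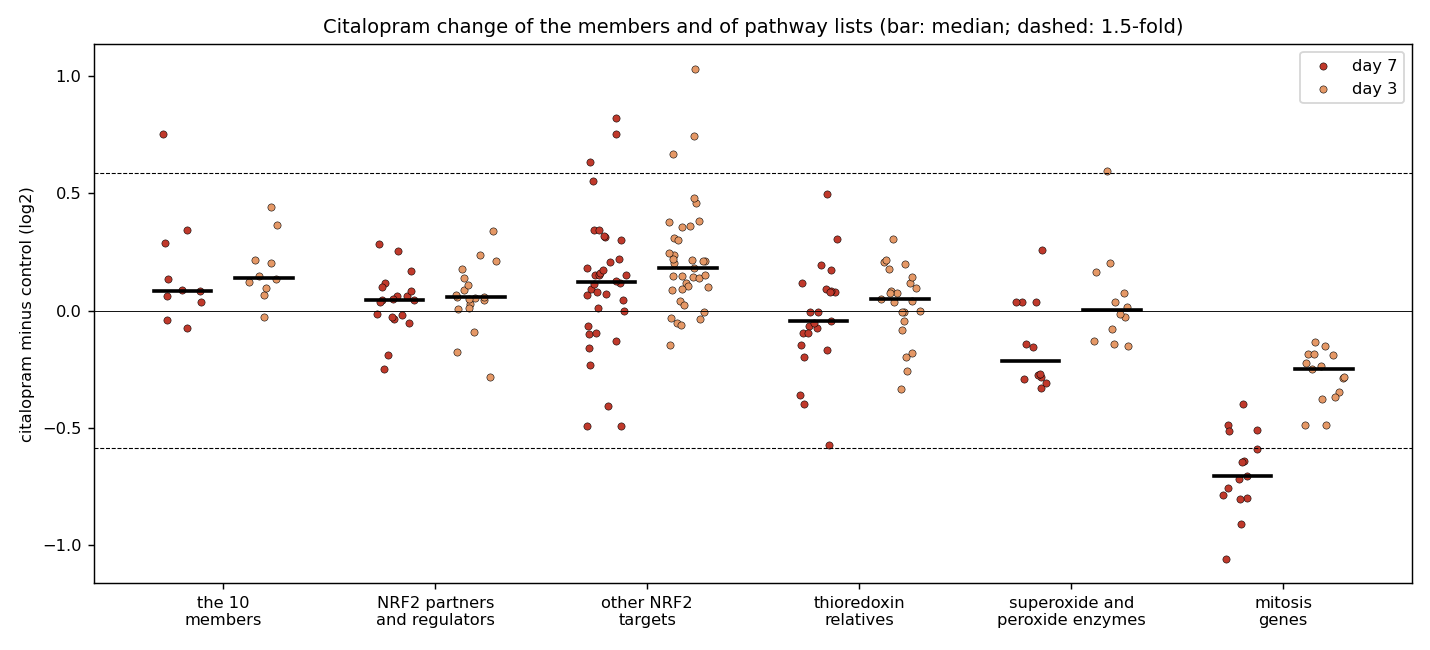
Log2 difference between citalopram and control for each gene above the floor, at day 7 (red) and day 3 (orange), in the 10 members and 5 lists, with bars for medians and dashed lines at 1.5-fold. Medians of the other NRF2 targets are 0.12 and 0.18 and those of mitosis genes -0.70 and -0.25.

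On the same arrays, genes of mitosis lay in the other direction. All 15 measured were lower with citalopram at both days (medians -0.70 and -0.25), from -1.06 for Cenpa to -0.40 for Mki67 at day 7, and 11 were lower by at least 1.5-fold at day 7, where 0.945% of genes were. The fit called 0 of them for citalopram. Of the macrophage markers above the floor, Lyz2 was higher with citalopram by 0.47 at day 7 and 0.57 at day 3. Cd68 was at 0.15 and -0.01, and Cd14 at 0.15 and -0.04. Below the floor, Adgre1 was at -0.21 and -0.11, Csf1r at 0.01 and 0.02, and Ptprc at -0.06 and 0.22. Of the 6 markers, Lyz2 thus had the largest difference at each day. The mean of the 6 macrophage markers, some of them below the floor, was 6.67 with citalopram and 6.58 in control at day 7. At day 3 it was 6.77 with citalopram and 6.66 in control. The part of cell division or of other cells in the members' differences was not tested.

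For the members with the widest range over the arrays, the genes closest in pattern were sought among 10922 genes above the floor on all 4 arrays, by the Euclidean distance of values centred on each gene's mean. Closest to Nqo1 (range 0.94) were Lurap1l (distance 0.027), Notch2 (0.068) and Matn2 (0.074). Lurap1l was at 0.33 and 0.43 for citalopram at day 7 and day 3. Closest to Osgin1 (range 0.75) were Bcl6 (0.057), Zfp521 (0.099) and Runx1t1 (0.100), and Bcl6 was at 0.71 and 0.16. Among the members, Nfe2l2 and Txn1 were closest to each other (0.099) and Nqo1 and Sod2 farthest apart (0.769). The values were not scaled, so the distance also depends on how much a gene varies. Genes that vary little lie close, and Nfe2l2 ranged over 0.15 and Txn1 over 0.20. With 4 arrays such distances describe these libraries only.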

How the data were processed

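Total RNA of 4 samples was measured on Affymetrix arrays, 1 array for each of citalopram and control at day 7 and at day 3. The authors deposited 1 expression value per feature and array, read here as log2, a base inferred from the range of 3.90 to 15.5 and not stated in the sources used here. Partek is the only tool named, without a version, per the submitters' processing notes. The sources used here do not give how background, normalization and probe summaries were handled. Because array medians over all features ranged from 6.50 to 6.66, differences may carry shifts between arrays. Over the 19938 named genes the array medians were closer, from 6.89 to 6.90. Precision is limited by the number of arrays.

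Of 35556 features, 21789 carried 1 platform gene symbol, 1621 several and 12146 none. Genes were named from features with 1 symbol. The brightest feature by mean was kept for each of 19938 genes, and all 10 members matched RefSeq symbols through Entrez numbers. Log2 differences were taken between arrays. Two-sided tests used limma's lmFit and eBayes (version 3.58.1, under R 4.3.3) with additive terms for treatment and day. Benjamini-Hochberg adjustment ran over the 12415 genes that reached the floor on any array. Promoters and figures used Python 3.11.15, pandas 2.3.3 and matplotlib 3.10.9.

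The members, lists and tests were chosen with earlier results of these data known. Named genes are the members and, per list, genes past 1.5-fold and the highest and lowest for citalopram, and the 3 genes nearest in pattern to the members of widest range. Called genes were also named after their values were seen. Alternatives were 3 scalings, the mean of a gene's features, other floors, an intensity trend, fits with 1 term and a threshold of 0.32 in place of 0.58.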

Additional observations from a re-analysis of the deposited data

Results flagged for a closer look

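Several members moved in opposite directions in the 2 pairs of arrays being compared, and none of these contrasts was tested, since every group has 1 array. Osgin1 was at 0.40 for day 7 against day 3 with citalopram and at -0.13 in control, a difference of 0.53. For Cat the same values were -0.26 with citalopram and 0.07 in control, a difference of -0.33. For Nfe2l2 they were -0.04 and 0.04, a difference of -0.082. The citalopram change at day 7 against that at day 3 was -0.07 and 0.10 for Sod2 (difference -0.17), 0.09 and -0.03 for Keap1 (difference 0.11), and -0.04 and 0.07 for Prdx1 (difference -0.11). On the other Prdx1 feature the last values were 0.14 and -0.21, and the difference had the opposite sign (0.35). Except for Osgin1, Cat and the other Prdx1 feature, these differences are under 0.2 in size on the log2 scale.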

How the results depend on the processing

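No paired analysis was possible because each group has 1 array and so no replicate numbers to pair, though the day term in the fit already sets citalopram against control within each day. The additive fit on 3 arrays would leave no residual degrees of freedom, so no array was left out. Members called for citalopram stayed at 0 under the 8 alternatives run. Members called for day numbered 1 on the deposited values, 2 after quantile normalization (Nqo1 and Srxn1), and 0 with no floor, with the floor at the 20th percentile and with day alone. Members past 1.5-fold for citalopram at day 7 (1, Osgin1) did not change in number with the scaling, features or floor. At the threshold of 0.32 on the deposited values there were 2 at day 7 (Osgin1 and Nqo1) and 2 at day 3 (Nqo1 and Cat). For day 7 against day 3 with citalopram there were 3 (Nqo1, Osgin1 and Srxn1), and 2 after quantile normalization (Nqo1 and Srxn1). Under median centring 1 member passed 0.32 for citalopram at day 7 (Osgin1). For day with citalopram, 1 was then higher by that much (Nqo1), while Cat (-0.42) and Sod2 (-0.36) were lower. In control, the count of 1 past 1.5-fold for day became 0 under quantile normalization, cyclic loess and median centring. The use of single-symbol features was not run as an alternative, since it already holds for the deposited-value results. Over all genes, limma's calls for day were 163 higher and 185 lower on the deposited values, 44 and 24 with day alone, 99 and 91 without a floor, 101 and 95 with the lower floor, 459 and 1085 after quantile normalization, 436 and 582 after cyclic loess and 237 and 2057 after median centring. The cause was not tested. Signal over the floor does not limit the members, but the single array per group does.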
